A study of Rattus norvegicus with 18 samples.

Results

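The transcripts described here are those of the fibrillar collagens of types I and III in rat skeletal muscle: Col1a1 (ENSRNOG00000003897), Col1a2 (ENSRNOG00000011292) and Col3a1 (ENSRNOG00000003357). The 3 genes were picked out by name, through their Ensembl identifiers, and the rule used no measured value. They were chosen with earlier results of these data known, and they are 3 of the 32882 genes of the count tables. Col1a1 and Col3a1 had reads in each of the 18 libraries and passed the filter on low counts, and Col1a2 was listed at 0 throughout.

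Fibrillar collagens form the cable-like fibers of the extracellular matrix. Type I collagen is built from the alpha chains that Col1a1 and Col1a2 encode and gives tendon and the connective tissue sheaths of muscle their tensile strength, whereas type III collagen is built from the product of Col3a1 alone and is found with type I in finer, more compliant networks. In skeletal muscle these transcripts come mainly from fibroblasts and related cells between the fibers rather than from the muscle fibers, and their products are secreted as procollagens that are trimmed, assembled and cross-linked outside the cell.

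Gastrocnemius, a calf muscle, was sampled from 18 male rats of lines that had been selectively bred from the heterogeneous N:NIH stock, so that rats of 1 group were not genetically identical. High capacity runners (HCR, n = 3) and low capacity runners (LCR, n = 3) came from generation 33 of lines bred on running capacity without training, which is tested at 11 weeks of age, and their muscles were archived frozen samples. High response trainers (HRT, n = 3) and low response trainers (LRT, n = 3) came from generation 15 of lines bred on the gain in running distance with training and were themselves untrained. HRTT (n = 3) and LRTT (n = 3) were other rats of these lines that ran on a treadmill for 8 weeks. Rats of the 4 responder-line groups had a first running test at 10 to 12 weeks of age. Muscles of the 4 responder-line groups were taken 48 hours after the last running test, which untrained rats ran as well. Untrained and trained animals were different rats, so no rat was measured before and after training.

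Between 25084058 and 42172690 reads were counted on genes per library. A level below is in CPM, the counts per 1e+06 counts of the library total after scaling by the TMM method, and differences are log2 ratios of such levels. Counting error was small beside the differences between rats, since Col1a1 had 1109 to 20736 counts per library, a counting error of 0.694% to 3%, and Col3a1 had 3738 to 23243, an error of 0.656% to 1.64%. The count tables give identifiers without gene symbols, and 0 of the 32882 identifiers could be matched to the symbols of the reference table, so that markers of muscle fibers or of other cells were not read in single libraries.

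Col1a2, which encodes the alpha 2 chain of type I collagen, had 0 counts in each of the 18 libraries. At these depths a count of 0 allows a level of up to 0.0701 to 0.123 CPM, depending on the library, in counting error alone. Its identifier shared this with 10541 of the 32882 genes. The alpha 1 chain of the same protein was counted at 30.7 to 549 CPM in the same libraries. The headers of the count tables show that a read overlapping several genes was given to each of them and that strand was ignored, and they show no option to count reads that align to several places. Whether the zeros of Col1a2 come from the counting was not tested. No difference between groups is given for Col1a2, and the ratio of the alpha 1 to the alpha 2 chain could not be formed.

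Col1a1, the alpha 1 chain of type I collagen, had its lowest group means in the lines bred for running capacity. In HCR its level was 198, 93.1 and 30.7 CPM in replicates 1, 2 and 3 (mean 107 ± 84.4, SD, n = 3). In LCR it was 40.8, 37.5 and 64.0 CPM (mean 47.4 ± 14.4, SD, n = 3). HCR replicates 1 and 2 stood above each LCR rat, whereas HCR replicate 3 stood below each of them and had the lowest level of all 18 libraries.

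In the untrained responder lines the level of Col1a1 was nearly the same on average. HRT rats had 152, 235 and 103 CPM (mean 163 ± 67.0, SD, n = 3) and LRT rats had 175, 131 and 181 CPM (mean 162 ± 27.1, SD, n = 3). The 3 LRT values lay inside the range of the HRT values. After training, HRTT rats had 193, 161 and 96.1 CPM (mean 149.8 ± 49.2, SD, n = 3), a range that overlapped that of the untrained HRT rats. LRTT rats had 75.8, 329 and 549 CPM (mean 318 ± 237, SD, n = 3). The lowest and the highest Col1a1 of the 12 responder-line libraries were thus both in LRTT, 7.24-fold apart.

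Col3a1, the chain of type III collagen, had more reads than Col1a1 in each library. Its level was 262, 174 and 95.1 CPM in HCR (mean 177 ± 83.6, SD, n = 3) and 105, 126 and 168 CPM in LCR (mean 133 ± 32.1, SD, n = 3). The HCR values spanned those of LCR on both sides. HRT rats had 305, 321 and 348 CPM (mean 324 ± 21.7, SD, n = 3), the narrowest range of the 6 groups. LRT rats had 399.6, 262 and 333 CPM (mean 332 ± 68.8, SD, n = 3), on both sides of HRT. With training, the level was 372, 280.3 and 238 CPM in HRTT (mean 297 ± 68.2, SD, n = 3) and 152, 389 and 615 CPM in LRTT (mean 385 ± 232, SD, n = 3). As for Col1a1, LRTT held the lowest value, in replicate 1, and the highest, in replicate 3, among the responder lines.

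**Figure D1:**
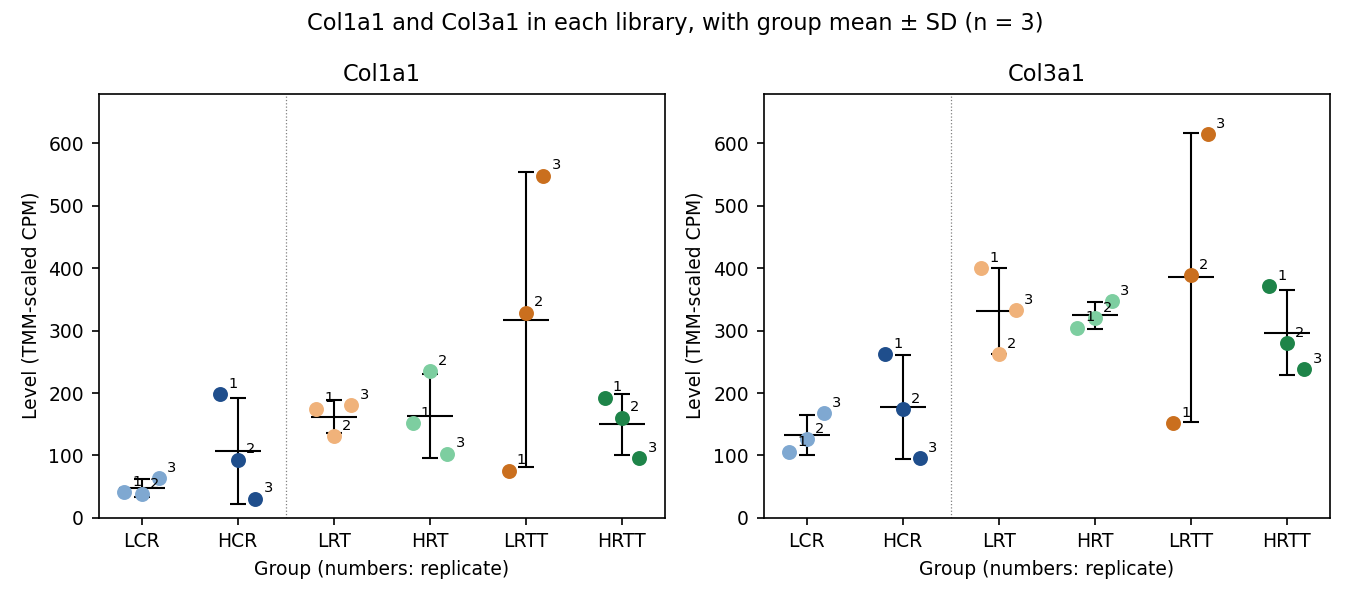
Levels of Col1a1 (left) and Col3a1 (right) in CPM on a linear axis for each library, numbered by replicate, with the group mean (bar) and SD (whiskers, n = 3); a dotted line parts the capacity lines from the responder lines. LRTT replicate 3 is the highest point for both genes at 549 and 615 CPM, LRTT replicate 1 is the lowest responder-line point at 75.8 and 152 CPM, and HCR replicate 3 is the lowest of all at 30.7 and 95.1 CPM.

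Ordered by mean level, Col1a1 ran from LRTT through HRT, LRT, HRTT and HCR down to LCR, and Col3a1 from LRTT through LRT, HRT, HRTT and HCR down to LCR. Neighbours in either order had ranges that overlapped. For Col1a1 no gap between neighbouring means was larger than the larger of their SDs, and for Col3a1 only the gap of 119.7 CPM between HRTT and HCR was. The median Col1a1 was 52.4 CPM over the 6 capacity-line libraries and 168 CPM over the 12 responder-line libraries, and that of Col3a1 was 147 and 327 CPM. The capacity and responder lines had separate count tables, each scaled on its own, and differed in breeding, generation and sampling, which cannot be told apart here. The order of groups was the same when all 18 libraries were scaled together.

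The first comparison asks which genes differ with inborn running capacity. Col1a1 was 2.26-fold higher in HCR than in LCR by the fitted means (log2 difference 1.18, SE 0.61), with a 95% interval from 0.82-fold to 6.22-fold. Col3a1 was 1.33-fold higher (log2 difference 0.41, SE 0.35), with an interval from 0.754-fold to 2.35-fold. Neither passed edgeR's quasi-likelihood test once p-values were adjusted by the Benjamini-Hochberg method over 13138 genes (adjusted p = 0.794 for Col1a1 and 0.882 for Col3a1), and the unadjusted values were 0.0986 and 0.28. Among all tested genes 0.0304% were called, which required a fold change above 1.5 as well as an adjusted p under 0.05, and 6.55% had an unadjusted p under 0.05. The groups did not overlap in 12.3% of genes, while those of Col1a1 and Col3a1 did. Although 2.82% of genes had a larger absolute difference than Col1a1, 12.4% had a smaller p, beside an SD of log2 CPM of 1.35 between HCR rats.

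The size of this difference rested on single HCR rats. Without HCR replicate 1 the log2 difference of Col1a1 was 0.37, with an unadjusted p of 0.447 in edgeR's test. Without HCR replicate 3 it was 1.62, with an unadjusted p of 0.00236 and an adjusted p of 0.483 in edgeR's test. For Col3a1 it was 0.0043 without HCR replicate 1 (unadjusted p = 0.989 in edgeR's test). Without HCR replicate 3 it was 0.71 (unadjusted p = 0.0371, adjusted p = 0.981 in the same test). The column headings also hold a number that is not explained in the file, 1 for HCR replicates 1 and 2 and LCR replicates 2 and 3, and 3 for HCR replicate 3 and LCR replicate 1. Among the libraries numbered 1, both HCR levels of Col1a1 (198 and 93.1 CPM) were above both LCR levels (37.5 and 64.0 CPM), and among those numbered 3 the HCR level (30.7 CPM) was below the LCR level (40.8 CPM). With that number as a term in the fit, the log2 difference was 0.90 (edgeR adjusted p = 0.879). In whole muscle, fewer collagen-making cells and less collagen RNA per cell cannot be told apart, here and in each comparison that follows.

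Before training, the responder lines did not differ detectably. The log2 difference between HRT and LRT was 0.010 for Col1a1 (SE 0.58, adjusted p = 0.997) and -0.03 for Col3a1 (SE 0.38, adjusted p = 0.984) in edgeR's quasi-likelihood test over 13478 genes. The intervals ran from 0.413-fold to 2.45-fold and from 0.543-fold to 1.76-fold, so that a change of the size seen between the capacity lines lay inside the first of them. Over all genes 0.00742% were called, 9.56% had an unadjusted p under 0.05 and 16.2% had groups that did not overlap. The headings carried a 2 for each HRT library and 3, 1 and 1 for LRT replicates 1, 2 and 3, so that number cannot be told apart from the line here. Leaving out 1 library turned the sign of the difference for either gene, from -0.34 without HRT replicate 2 to 0.26 without HRT replicate 3 for Col1a1, and from -0.17 without LRT replicate 2 to 0.12 without LRT replicate 1 for Col3a1.

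After training, the mean Col1a1 was 2.12-fold lower in HRTT than in LRTT (log2 difference -1.08, SE 0.58), with a 95% interval of the log2 difference from -2.38 to 0.21. That of Col3a1 was 1.3-fold lower (log2 difference -0.38, SE 0.39, interval -1.23 to 0.47). Neither passed edgeR's test (adjusted p = 0.889 and 0.936, unadjusted 0.0924 and 0.351). All HRTT values of both genes lay between the lowest and the highest LRTT value. Of all genes, 0.00742% were called, 5.76% had an unadjusted p under 0.05 and 10.9% had groups without overlap. While 2.37% of genes had a larger absolute difference than Col1a1, 10.4% had a smaller p in edgeR's test. The SD of log2 CPM between LRTT rats was 1.48 for Col1a1. Without LRTT replicate 1 the log2 difference of Col1a1 was -1.54 (unadjusted p = 0.00166, adjusted p = 0.218 in edgeR's test). Without LRTT replicate 3 it was -0.43 (unadjusted p = 0.46 in the same test). For Col3a1 it was -0.75 (unadjusted p = 0.00836, adjusted p = 0.359) without LRTT replicate 1. Without LRTT replicate 3 it was 0.13, a change of sign (unadjusted p = 0.697 in edgeR's test). The headings carried a 3 for each HRTT library and a 2 for each LRTT library, which cannot be told apart from the line in this comparison.

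The effect of training within the low responders was read from LRTT against LRT. Col1a1 was 1.96-fold higher in LRTT (log2 difference 0.97, SE 0.58, adjusted p = 0.989) and Col3a1 1.16-fold higher (log2 difference 0.22, SE 0.39, adjusted p = 0.989) in edgeR's test, with intervals from 0.797-fold to 4.81-fold and from 0.645-fold to 2.09-fold. For both genes, LRTT replicates 2 and 3 were above or inside the LRT values and LRTT replicate 1 was below each of them. This comparison shares its LRTT rats with the one above. The headings carried a 2 for each LRTT library and a 3 or a 1 for the LRT libraries, which cannot be told apart from training. The share of genes called was 0%, with 565 genes (4.19%) at an unadjusted p under 0.05 and 8 genes called by DESeq2, and groups did not overlap in 9.82%. Without LRTT replicate 3 the log2 difference fell to 0.32 for Col1a1 and -0.29 for Col3a1, and without LRTT replicate 1 it was 1.43 and 0.59. In the fit without LRTT replicate 1 the unadjusted p was 0.00269 for Col1a1 and 0.0277 for Col3a1, and the adjusted p was 0.501 and 0.864. In the fit without LRTT replicate 3 the unadjusted p of edgeR's test was 0.586 for Col1a1 and 0.402 for Col3a1.

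Within the high responders, the ranges of trained (HRTT) and untrained (HRT) rats overlapped for both genes. The log2 difference was -0.13 for Col1a1 (SE 0.58, interval -1.41 to 1.16) and -0.13 for Col3a1 (SE 0.39, interval -0.98 to 0.72), with an adjusted p of 1 for both in edgeR's test. No gene was called (0%), 335 genes (2.49%) had an unadjusted p under 0.05, DESeq2 called 2, and 8.39% of genes had groups that did not overlap. The headings numbered the HRTT libraries 3 and the HRT libraries 2, which cannot be told apart from training. Removing HRT replicate 2, the highest of its group for Col1a1, turned that difference to 0.23, and removing HRTT replicate 3 turned that of Col3a1 to 0.01. With the replicate number as a block, the log2 difference was -0.09 for Col1a1 and -0.11 for Col3a1.

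Whether training acted differently in the lines was tested as the difference of the training effects, that in the high responders minus that in the low responders. It was -1.10 for Col1a1 (SE 0.82, interval -2.92 to 0.73, adjusted p = 0.947) and -0.34 for Col3a1 (SE 0.54, interval -1.55 to 0.86, adjusted p = 0.974) on the log2 scale in edgeR's test. Without LRTT replicate 3 these became -0.44 (unadjusted p = 0.572) and 0.17 (unadjusted p = 0.718) in edgeR's test. Without LRTT replicate 1 they became -1.55 (unadjusted p = 0.00999) and -0.72 (unadjusted p = 0.0433), with an adjusted p of 0.938 for both in edgeR's test. Across all genes 0% were called, 502 (3.72%) had an unadjusted p under 0.05 and DESeq2 called 3. For both genes the interval included no difference between the lines.

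Over both training states, high responders had a log2 difference from low responders of -0.54 for Col1a1 (SE 0.41, adjusted p = 0.65) and -0.20 for Col3a1 (SE 0.27, adjusted p = 0.805) in edgeR's test. Of all genes, 0.0668% were called and 10.5% had an unadjusted p under 0.05. Without LRTT replicate 3 the values were -0.21 (unadjusted p = 0.59) and 0.05 (unadjusted p = 0.824) in edgeR's test. Without LRTT replicate 1 they were -0.76 (unadjusted p = 0.0109, adjusted p = 0.244) and -0.39 (unadjusted p = 0.0327, adjusted p = 0.326). Trained rats of both lines differed from untrained rats by 0.42 for Col1a1 (SE 0.41, adjusted p = 1) and by 0.04 for Col3a1 (SE 0.27, adjusted p = 1) in the same test, where 0% of genes were called, 437 (3.24%) had an unadjusted p under 0.05 and DESeq2 called 5. These became 0.10 (unadjusted p = 0.806) and -0.21 (unadjusted p = 0.369) without LRTT replicate 3 in edgeR's test. They became 0.65 (unadjusted p = 0.0235, adjusted p = 1) and 0.23 (unadjusted p = 0.171) without LRTT replicate 1. Across the 8 comparisons, neither collagen reached an unadjusted p of 0.05 with all libraries in edgeR's test. In DESeq2's Wald test Col1a1 had an unadjusted p of 0.0217 in HCR against LCR, with an adjusted p of 0.552.

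**Figure D2:**
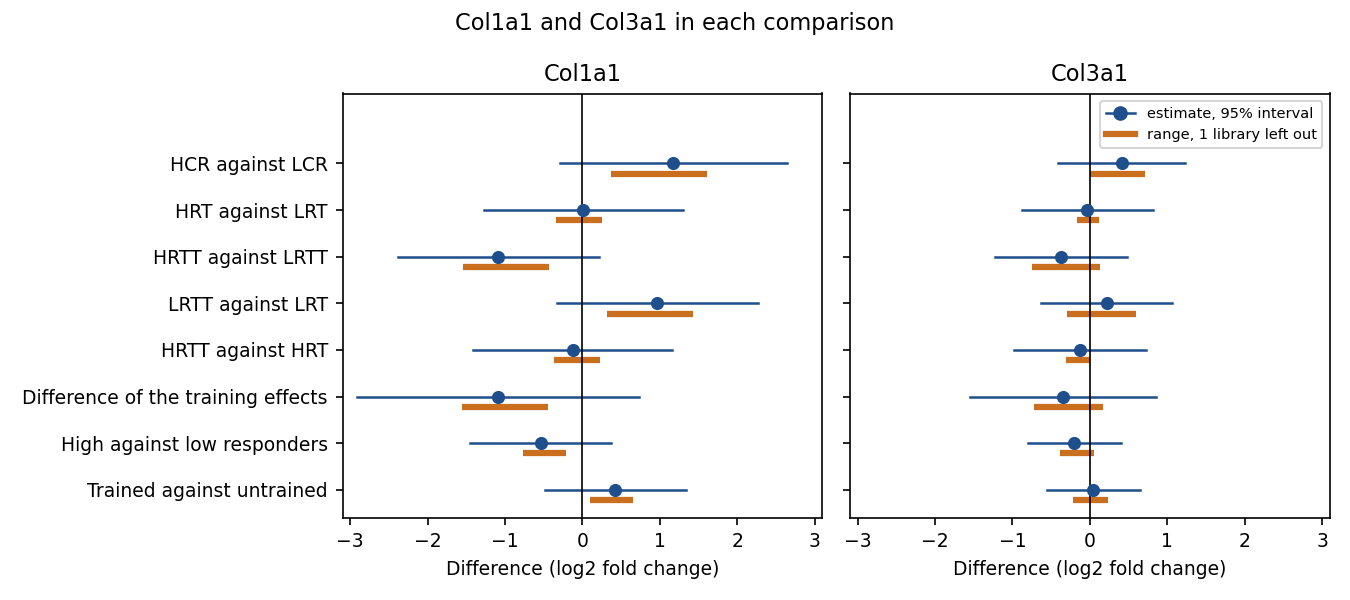
Log2 difference of Col1a1 (left) and Col3a1 (right) in each comparison, as the estimate with its 95% interval from edgeR's fit (point and thin line) and the range of the estimate when 1 library was left out (thick line). Each interval crosses 0. The thick lines for Col1a1 cross 0 only in HRT against LRT and in HRTT against HRT. They stay on 1 side in the others, as in HCR against LCR (0.37 to 1.62), HRTT against LRTT (-1.54 to -0.43) and LRTT against LRT (0.32 to 1.43). Those of Col3a1 cross 0 in every comparison except HCR against LCR (0.0043 to 0.71).

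The collagens varied more between rats of 1 group than most genes did. The SD of log2 CPM within groups was 0.999 for Col1a1 in the capacity lines and 0.85 in the responder lines, larger than that of 97.1% and 96.7% of 13020 genes, for which the medians were 0.284 and 0.232. For Col3a1 it was 0.574 and 0.562, larger than that of 86.3% and 90.1% of genes. This spread was not the same in all groups. Col1a1 had an SD of 1.48 in LRTT and 1.35 in HCR, and of 0.25 in LRT, the lowest of the 6. Col3a1 had its largest SD in LRTT and its smallest, 0.0957, in HRT, where only 15% of genes varied less. Col1a1 varied more than Col3a1 in 5 of 6 groups, with LRT the exception (0.25 against 0.30).

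Col1a1 and Col3a1 moved together from rat to rat. Pearson's r of their log2 CPM was 0.895 over the 18 libraries with each count table centred on its own mean, 0.966 over the 6 capacity-line libraries and 0.853 over the 12 responder-line libraries. After the group means were removed it was 0.92 over the 18 libraries. These values are descriptions, since the 2 genes share each library, its depth and its dissection.

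The balance between the chains was measured within a library as the ratio of Col3a1 to Col1a1 counts, to which sequencing depth and scaling do not contribute. Gene lengths were not in the files, so the ratio is one of reads and not of molecules, but length cancels when groups are compared. The ratio was 1.33, 1.87 and 3.1 in HCR and 2.57, 3.37 and 2.63 in LCR, with HCR replicate 3 inside the LCR range. It was 2, 1.36 and 3.38 in HRT and 2.28, 2 and 1.84 in LRT. With training it was 1.93, 1.75 and 2.48 in HRTT and 2, 1.18 and 1.12 in LRTT. LRTT replicates 2 and 3 had the lowest ratios of the 18 libraries, followed by HCR replicate 1 and HRT replicate 2, and these were also the 4 libraries with the highest Col1a1. Since Col1a1 is part of the ratio, the match is a description.

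The mean log2 ratio was 0.98 ± 0.61 in HCR, 1.5 ± 0.22 in LCR, 1.07 ± 0.66 in HRT, 1.02 ± 0.15 in LRT, 1.02 ± 0.26 in HRTT and 0.47 ± 0.46 in LRTT (SD, n = 3 each). Exact two-sided permutation tests gave p = 0.3 for HCR against LCR (difference -0.52), for HRTT against LRTT (0.55) and for LRTT against LRT (-0.55), where 0.1 is the smallest p that 3 rats against 3 can give. The same exact permutation tests gave p = 0.8 for HRT against LRT (0.04) and p = 0.9 for HRTT against HRT (-0.05). For high against low responders, permuted within each training state, the difference was 0.30 with an exact permutation p of 0.255, where 0.005 is the smallest possible. Adjusted over the 6 comparisons by the Benjamini-Hochberg method these exact permutation p-values ranged from 0.45 to 0.9.

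**Figure D3:**
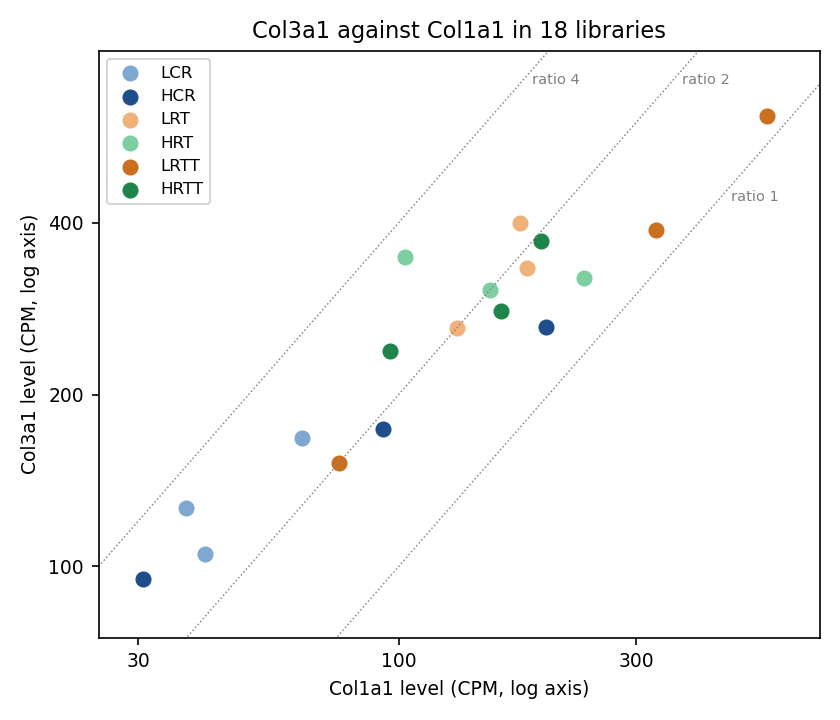
Level of Col3a1 against that of Col1a1 in each of the 18 libraries, both in CPM on log axes, coloured by group; dotted lines mark Col3a1 to Col1a1 ratios of 1, 2 and 4. The points rise together (r = 0.966 over the capacity lines and 0.853 over the responder lines, on log2 CPM) and approach the line of ratio 1 at the upper right, where LRTT replicate 3 has a ratio of 1.12.

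Genes whose pattern was most like that of the collagens were looked for by Pearson's r of log2 CPM over the 18 libraries, with each count table centred on its own mean, among 13020 genes. For Col1a1, 12 genes had an r above 0.9, and ENSRNOG00000025001 came first with 0.947. For Col3a1, 12 genes had an r above 0.9, and ENSRNOG00000015957 came first with 0.947. The median r over all genes was -0.01 for Col1a1 and -0.02 for Col3a1. Both leading genes were, like the collagens, highest in LRTT replicate 3, at 32.5 and 31.6 CPM, and they were lowest in LCR replicate 1, at 7.09 and 6.26 CPM. Since both genes were picked by r over these same libraries, the shared peak follows in part from the choice. Over the 12 responder-line libraries alone each of them ranked 4. The 10 genes most like Col1a1 and the 10 most like Col3a1 had 0 genes in common over the 18 libraries and 0 over the 12 responder-line libraries, but 2 on deviations from the group means. Col3a1 itself ranked 15 among the genes like Col1a1 over the 18 libraries, 87 over the 12 and 8 on the deviations. Col1a1 ranked 17, 89 and 12 among the genes like Col3a1 in the same order. The files do not pair these identifiers with symbols, so they are not named further.

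The authors also deposited, for each of 5 comparisons, a table of genes they called, with 1 pooled expression level per group whose unit is not named in the files. Col1a1 is in 3 of these tables, and Col1a2 and Col3a1 are in none. The authors' level of Col1a1 is 9.26 in LCR and 21.5 in HCR, 60.2 in LRTT and 27.3 in HRTT, and 30.6 in LRT and 61.1 in LRTT. Set beside them, the mean CPM from the counts was 47.4 in LCR and 107 in HCR, 318 in LRTT and 149.8 in HRTT, and 162 in LRT. The pooled levels carry no value per rat, and the range of 75.8 to 549 CPM between LRTT rats is not visible in them.

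The tables name genes by symbol and so hold some of the partners of these collagens. Since only genes that the authors called are listed, each listed gene differs by construction, and the counts below carry no test. Set against the 22341 genes with a count in any library, the rows of a table come to 1.94% for LCR and HCR, 1.05% for LRT and HRT, 1.14% for LRTT and HRTT, 1.14% for LRT and LRTT and 0.403% for HRT and HRTT. Of 99 genes for other collagens, collagen synthesis and processing, fibril-binding proteins, collagen breakdown and collagen receptors, 7 are in the table of LCR and HCR, and 7 of 7 have the higher level in HCR, where 59.2% of its 434 rows do. In the table of LRTT and HRTT 11 are listed and 11 of 11 are higher in LRTT, where 73.3% of its 255 rows are. In the table of LRT and LRTT 8 are listed and 8 of 8 are higher in LRTT, where 68.2% of 255 rows are. These last tables share the LRTT rats. None of the 99 is in the table of LRT and HRT or in that of HRT and HRTT, where Col1a1 is not listed either.

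Among other collagens, the authors' level of Col14a1, a collagen that lies on the surface of type I fibrils, is 2.48 in LCR and 4.92 in HCR, and 7.86 in LRTT and 3.96 in HRTT. Col11a1 and Col11a2, chains of type XI collagen that is found in the core of fibrils in cartilage, are at low levels of 0.192 and 0.171 in LRT and 0.497 and 0.366 in LRTT. Col22a1, a collagen of the junction between muscle and tendon, is at 1.22 in LRT and 2.24 in LRTT, and Col8a2, a network-forming collagen, at 1.05 in LRTT and 0.545 in HRTT. These collagens are higher in the group where Col1a1 is higher.

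Procollagen must be cleaved before it forms fibrils. Pcolce, an enhancer of the enzyme that removes the carboxyl end of procollagens, has an authors' level of 17.2 in LRTT and 9.99 in HRTT, and 11.1 in LRT and 17.5 in LRTT. Adamts2, which removes the amino end of procollagens, is at 0.824 in LCR and 1.57 in HCR. None of the 17 genes for collagen synthesis, folding and secretion is in any of the 5 tables. Of 13 genes for breakdown and its inhibitors, Timp4, an inhibitor of matrix metalloproteinases, is listed, at 8.20 in LCR and 13.9 in HCR. Of 9 collagen receptors, Itga11, an integrin subunit that binds fibrillar collagen, is listed at 2.77 in LRTT and 1.64 in HRTT.

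Of 19 proteins that bind the fibril or the matrix around it, 4 are listed in the table of LCR and HCR, 7 in that of LRTT and HRTT and 4 in that of LRT and LRTT. The rows of these tables come to 1.94%, 1.14% and 1.14% of genes with a count. Fibromodulin (Fmod), a proteoglycan that regulates the width of type I fibrils, has an authors' level of 20.4 in LRTT against 8.65 in HRTT and 8.28 in LRT. Biglycan (Bgn) is at 16.2 in LRTT and 9.59 in HRTT, and Prelp, a related leucine-rich protein, at 10.9 and 6.32. Tenascin C (Tnc), a glycoprotein of tendon and of loaded or injured muscle, is at 1.46 in LRTT, 0.462 in HRTT and 0.469 in LRT. Thbs2, a thrombospondin whose loss disturbs collagen fibrils, is at 0.897 in LCR and 1.93 in HCR, and at 2.65 in LRTT and 1.26 in HRTT. Ecm1 and Cilp2, matrix glycoproteins, are the only genes of the 99 listed in each of the 3 tables, and are higher in HCR than in LCR and in LRTT than in either group set beside it.

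Some markers of tendon are in the same tables. Of 9 tendon markers, 2 are listed in the table of LCR and HCR, both higher in HCR, as are 59.2% of its rows. In that of LRTT and HRTT 4 are listed, all 4 higher in LRTT, as are 73.3% of rows, and in that of LRT and LRTT 4 are listed, all 4 higher in LRTT, as are 68.2% of rows. The other tendon markers have no level in these tables, and the list was not tested. Tenomodulin (Tnmd), a membrane protein of tendon cells, has an authors' level of 1.035 in LCR and 3.26 in HCR, and of 6.06 in LRTT, 1.99 in HRTT and 1.81 in LRT. Keratocan (Kera), a proteoglycan of cornea and tendon, is at 2.93 in LCR and 6.77 in HCR and at 25.3 in LRTT and 6.997 in HRTT. Kera is also listed where Col1a1 is not, at 5.07 in LRT and 15.2 in HRT, and at 14.9 in HRT and 7.03 in HRTT. Fmod belongs to both the fibril-binding and the tendon lists. The part of tendon tissue in the differences of Col1a1 was not tested. The identifiers of the counts were not paired with symbols, so these markers were not read per rat.

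**Figure D4:**
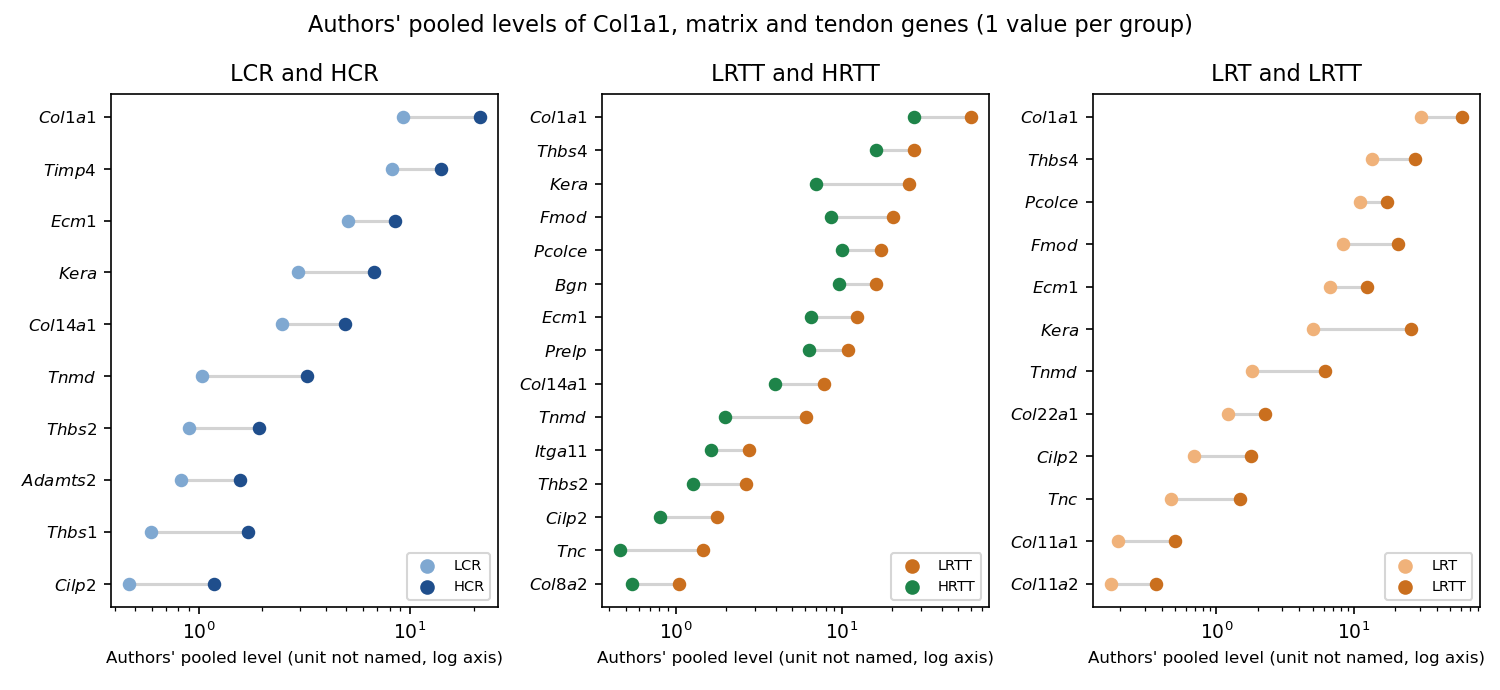
The authors' pooled levels, 1 value per group on a log axis in a unit the files do not name, of Col1a1 and of the listed matrix and tendon genes in the 3 deposited tables that hold Col1a1; colours mark groups. Each gene shown is higher in HCR than in LCR (left) and in LRTT than in HRTT (middle) or LRT (right), and the tables hold only genes the authors called.

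Markers of fibroblasts and of fat cells were read from the same tables. Of 12 markers of fibroblasts and their progenitors, Thy1 and Dpp4, surface proteins of such cells, are in the table of LCR and HCR, with authors' levels of 0.62 and 0.804 in LCR and 1.45 and 1.76 in HCR, and none is in another table. Of 6 fat cell markers 3 are listed in the table of LCR and HCR, and 3 of 3 are higher in HCR, where 59.2% of rows are, as for the hormone adiponectin (Adipoq) at 9.72 against 3.78. In the table of LRT and HRT 3 of 6 are listed, and 3 of 3 are higher in LRT, where 72.6% of its 234 rows are, with Adipoq at 20.3 against 8.30 in HRT, while Col1a1 is not listed there and its log2 difference in the counts was 0.010. In the table of LRT and LRTT 4 of 6 are listed, and 4 of 4 are higher in LRT, where 31.8% of its 255 rows are, with Adipoq at 20.3 against 6.39 in LRTT, whereas Col1a1 is lower in LRT. Both tables share the LRT rats. The part of either cell type in the collagen levels was not tested.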

How the data were processed

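RNA-seq libraries of gastrocnemius from 18 rats in 6 groups of 3 were analysed, grouped by their labels. The authors deposited raw counts per Ensembl gene in 2 tables, made per the file headers with featureCounts 1.6.4 on the Ensembl release 91 annotation of Rnor_6.0, unstranded (setting 0) and with reads given to each gene they overlapped. The labels and the methods differ on whether the library kit was stranded. The submitters' processing notes name TopHat2 2.1.1. The authors also deposited 5 tables of genes they called with Cuffdiff, whose pooled expression level (signal) per group has no named unit; their fold changes, p-values and q-values were not used.

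Tests on the counts used edgeR 4.0.16 in R 4.3.3: filterByExpr (minimum count 10), TMM, and the robust quasi-likelihood test, with HCR and LCR fitted alone (13138 genes) and the 12 responder-line libraries fitted together (13478 genes). A call required a fold change above 1.5 and a p-value under 0.05 after Benjamini-Hochberg adjustment. Levels are CPM with TMM factors, and correlations used log2 CPM with a prior count of 2. Ratios were compared by exact permutation tests. The tests were tried on simulated data. Depth is the total count per library, and floors (3 counts) and the counting errors in percent cover counting error only. The 95% intervals of differences come from edgeR's fit and include the variation between rats. No column of per-sample values was left out.

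The members, the 14 gene lists (166 genes) and the tests were chosen with earlier results of these data known. The rule for named genes was the 3 members, the 2 most abundant genes of each list, called genes, 11 genes by name (of which Col14a1, Thbs2 and Ecm1 had a level) and the 5 genes most like each member, of which the first is printed. Identifiers were not paired with symbols (0 of 32882 matched), so the lists were not tested in the counts and were described only by the authors' levels of the 33 genes listed; other genes named from them were chosen after their values were seen. The chi-square per gene between replicates was 15.5 to 261 over 18 pairs, so none was merged. Labels give separate rats.

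Deviations from group means of same-numbered HRTT and HRT libraries correlated at 0.505, 0.281 and 0.412, all over 0.1, so these numbers were counted as pairing; no source names a shared litter or day. Alternatives were RLE factors, library totals alone, DESeq2 1.42.0, other count filters, the replicate block, the heading number, fits of only the 2 groups compared, and leaving out each library. Scaling all 18 libraries together and correlating deviations from group means were added after seeing the data. A gene of the TGF-beta list is not reported here.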

Additional observations from a re-analysis of the deposited data

How the results depend on the processing

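Over the 16 fold changes of Col1a1 and Col3a1, the 288 values under the alternatives kept their side of the threshold, none being called, and 273 kept their direction. Of the 15 that changed direction, 14 came from leaving out 1 library, and 1 was Col1a1 in HRT against LRT under the replicate block (-0.0163). Some of the 288 values left out a library of neither group compared and so could hardly change direction. For example, Col1a1 in HRT against LRT was 0.0104 with all libraries and 0.0103 without HRTT replicate 2. Of 53 alternative values of the ratios 4 changed direction, all with 1 library left out.

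With 1 library left out, log2 differences of Col1a1 ranged from 0.37 to 1.62 in HCR against LCR, -0.34 to 0.26 in HRT against LRT, -1.54 to -0.43 in HRTT against LRTT, 0.32 to 1.43 in LRTT against LRT, -0.37 to 0.23 in HRTT against HRT, -1.55 to -0.44 for the difference of the training effects, -0.76 to -0.21 in high against low responders and 0.10 to 0.65 in trained against untrained. Those of Col3a1 ranged from 0.0043 to 0.71, -0.17 to 0.12, -0.75 to 0.13, -0.29 to 0.59, -0.31 to 0.0076, -0.72 to 0.17, -0.39 to 0.051 and -0.21 to 0.23 in the same order. Differences of the log2 ratio ranged from -0.85 to -0.24, -0.30 to 0.36, 0.40 to 0.82, -0.82 to -0.40 and -0.36 to 0.30 over the first 5 comparisons, and from 0.13 to 0.45 in high against low responders. Lone libraries were not left in any group.

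The replicate block gave -0.09 for Col1a1 and -0.11 for Col3a1 in HRTT against HRT, where all same-numbered libraries correlated above the cut-off. It changed no call of either gene. Elsewhere some were below it. Same-numbered deviations correlated at -0.229 to 0.223 in HCR against LCR and -0.299 to 0.121 in HRT against LRT. They correlated at 0.0148 to 0.457 in HRTT against LRTT and -0.257 to 0.22 in LRTT against LRT. The block gave 0.89 for Col1a1 in HCR against LCR.

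The numbers of genes called were 4 between HCR and LCR, 1 between HRT and LRT, 1 between HRTT and LRTT and 9 between high and low responders. In this order DESeq2 called 78, 20, 33 and 70, and 8 in LRTT against LRT, 2 in HRTT against HRT, 3 for the difference of the training effects and 5 in trained against untrained. Without the low-count filter 17, 1, 2 and 15 were called, with at least 10 counts in every library 0, 0, 0 and 4, and with the replicate block 0, 1, 1 and 5. The heading number left 0 in HCR against LCR, and library totals alone gave 2 in HRT against LRT. Only the 2 groups in the fit gave 5 in HRT against LRT, 6 in HRTT against LRTT and 1 in LRTT against LRT, and 1 in HRTT against HRT with the block. With 1 library left out the counts ran from 0 to 10, 1 to 4, 1 to 5 and 3 to 18, and from 0 to 3 in LRTT against LRT and 0 to 1 in the others. The cause of these changes was not tested.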

Other observations

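Some genes of TGF-beta signalling, a pathway that drives collagen synthesis in fibroblasts, are in the authors' tables. Mstn, which encodes the muscle growth inhibitor myostatin, has an authors' level of 22.04 in LCR and 7.80 in HCR. Tgfb2, a ligand, is at 19.6 in LRT and 12.1 in LRTT, and Ltbp1, which holds the latent ligand in the matrix, is at 5.62 in LRT and 3.50 in HRT. Among 11 myofibre markers, Myh7, the slow myosin heavy chain, is listed at 41.6 in LRT and 209 in LRTT. Among 7 endothelial markers, Vwf, the von Willebrand factor, is listed at 3.09 in LRT and 1.97 in HRT, and at 1.91 in LRTT. Lyz2, a lysozyme of macrophages and the only one of 8 immune markers listed, is at 28.9 in LRTT and 17.2 in HRTT. These are 1 pooled value per group of genes the authors called, with no test. The rows come to 1.94% of genes with a count for LCR and HCR and 1.05% for LRT and HRT. They come to 1.14% for LRTT and HRTT and 1.14% for LRT and LRTT.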
